A study of Mus musculus with 8 samples.

Results

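The replication-dependent histone genes were described in mammary glands of virgin female mice, 31 genes of the 19938 that the arrays measured with a probe set of their own. The comparison was between 2 genotypes, with 4 glands each, from mice of the C57BL/6 X FVB background at 5 weeks of age. MMTV-Cre;Sox9 flox/flox glands carried loxP sites around both copies of Sox9, a transcription factor of progenitor cells in several epithelia. MMTV-Cre;Sox9 flox/+ glands, the controls, had 1 floxed and 1 wild-type copy. MMTV-Cre, present in every animal, is a recombinase under a viral promoter that is active in mammary epithelium, and the tissue also held fat, stroma and immune cells. Each gland, dissected on the side of its lymph nodes, was hybridised alone to an Affymetrix Gene 1.0 ST array, and precision is limited by having 4 arrays per genotype.

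The genes were chosen by name, as all whose symbol began with Hist1h, Hist2h, Hist3h or Hist4h. The rule itself used no measured value, but this group was picked with earlier results of these data known. The choice was therefore not blind to the values. The array annotation gave newer names, under which 0 symbols began so, and the genes were therefore found by gene identifier through the older names that RefSeq lists as synonyms. RefSeq held 70 such genes, and 31 of them had a probe set paired with that gene alone. By name the 31 comprise 5 linker histone genes of the H1 family, 5 H2A, 11 H2B, 3 H3 and 7 H4 genes. In the older naming 23 belonged to the Hist1 cluster on chromosome 13, 4 to Hist2 on chromosome 3, 3 to Hist3 on chromosome 11 and 1 to Hist4 on chromosome 6. A further 27 probe sets were paired with several symbols, histones among them. They are described apart. The name does not describe every gene equally well. For example, H1f6, H2ac1 and H2bc1 are known from germ cells of the testis, non-dividing cells also make H1f2, and H2bu1-ps is annotated as a pseudogene.

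Nucleosomes wrap DNA around a core of H2A, H2B, H3 and H4, and H1 binds the DNA where it enters and leaves the core. Dividing cells need new histones for each copy of their genome, and the replication-dependent genes meet this need with messages made almost only in S phase. These messages end in a stem-loop bound by Slbp in place of a poly(A) tail and are degraded when DNA synthesis stops. In the mammary gland at puberty the main sites of division are the end buds of the growing ducts, beside cycling stromal cells and lymphocytes. How the RNA was primed for labelling is not given in the sources used here, and for messages without a tail the signal depends on it.

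The promoters of 8 of the genes are shown because the families share short elements there that the choice of genes did not use. Sequences are from RefSeq for build GRCm38.p6, 120 bases up to the start of transcription. For the linker histones H1f5 (chr13:21780626-21780745, minus strand) and H1f1 (chr13:23763548-23763667, plus strand), capitals mark CCAATCA, the form of the CCAAT box known from H1 promoters, and TATAA, the core of the TATA box on either strand.
H1f5: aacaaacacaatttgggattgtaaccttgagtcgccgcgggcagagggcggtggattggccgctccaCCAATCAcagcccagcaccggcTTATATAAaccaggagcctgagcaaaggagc
H1f1: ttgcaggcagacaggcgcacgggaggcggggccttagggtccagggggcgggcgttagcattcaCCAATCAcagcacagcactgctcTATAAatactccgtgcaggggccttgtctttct
For the H2B genes H2bc14 (chr13:21721924-21722043, plus strand), H2bc3 (chr13:23746614-23746733, plus strand) and H2bc18 (chr3:96269580-96269699, plus strand), capitals mark ATTTGCA, the octamer-type element that OCT1 is known to bind in H2B promoters, along with CCAATCA and TATAA.
H2bc14: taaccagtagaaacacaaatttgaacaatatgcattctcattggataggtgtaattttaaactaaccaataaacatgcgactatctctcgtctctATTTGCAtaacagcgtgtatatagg
H2bc3: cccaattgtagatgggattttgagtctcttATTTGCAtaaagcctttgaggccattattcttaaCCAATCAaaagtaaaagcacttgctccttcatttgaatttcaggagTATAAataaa
H2bc18: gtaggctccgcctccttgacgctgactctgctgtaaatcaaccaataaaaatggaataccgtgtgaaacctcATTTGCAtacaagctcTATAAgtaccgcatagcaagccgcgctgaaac
For the H4 genes H4c6 (chr13:23551669-23551788, minus strand), H4c4 (chr13:23581448-23581567, plus strand) and H4f16 (chr6:136804432-136804551, minus strand), capitals mark GGTCCG, the core of the element known from H4 promoters, and TATAA.
H4c6: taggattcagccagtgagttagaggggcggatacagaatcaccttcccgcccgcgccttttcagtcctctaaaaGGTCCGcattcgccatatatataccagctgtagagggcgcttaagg
H4c4: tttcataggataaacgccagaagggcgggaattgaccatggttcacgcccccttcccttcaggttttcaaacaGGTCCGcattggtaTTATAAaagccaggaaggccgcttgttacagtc
H4f16: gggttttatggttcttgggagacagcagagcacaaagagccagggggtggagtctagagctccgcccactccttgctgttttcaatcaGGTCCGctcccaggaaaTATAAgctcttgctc

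Promoter windows of 300 bases, 250 before and 50 after the start, were at hand for 26 of the 31 genes and were searched on both strands. TATAA was found in 21 of 26, or 80.8%, against 24.9% of all 32851 promoters. CCAATCA was found in 16 of 26, or 61.5%, against 7.82% of all promoters, and its share differed by family, with 5 of 5 H1, 4 of 5 H2A, 6 of 8 H2B, 1 of 2 H3 and 0 of 6 H4 genes. ATTTGCA was found in 9 of 26, or 34.6%, against 4.02%, in 4 of 5 H2A and 5 of 8 H2B genes. GGTCCG was found in 7 of 26, or 26.9%, against 8.25%, in 6 of 6 H4 genes and 1 of 8 H2B genes. None of the 4 motifs contains another, though TTATAA holds TATAA on both strands. They were picked with these windows in view, and a match is a description of the letters, not a bound site.

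All 31 genes had a lower mean log2 intensity in flox/flox than in flox/+ glands, where 52.6% of all genes did. Each difference subtracts the flox/+ mean from the flox/flox mean of log2 intensities offset by 16. The median of these differences over the histone genes was -0.30, against -0.01 over all 19938 genes, and they ranged between -0.67 for H1f5 and -0.03 for H3c15. With limma and Benjamini-Hochberg adjustment over all genes, 0 of the 31 passed an adjusted p of 0.05, which 8 genes of the whole table, or 0.0401%, passed. The smallest adjusted p among the histone genes was 0.177, for H1f1. An unadjusted p under 0.05 was reached by 20 of 31, all lower, where 5.46% of all genes reached it as lower and 4.80% as higher. The same shares are the background for the counts by family, cluster and gene list below. In 8 genes every flox/flox gland read below every flox/+ gland, against 3.16% of all genes, while 0 lay the other way, against 2.73%. The genes share cells, glands and partly probe sequence, so they are not independent observations of the genotypes. In whole tissue, fewer cells of a type and less RNA per cell cannot be told apart.

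**Figure D1:**
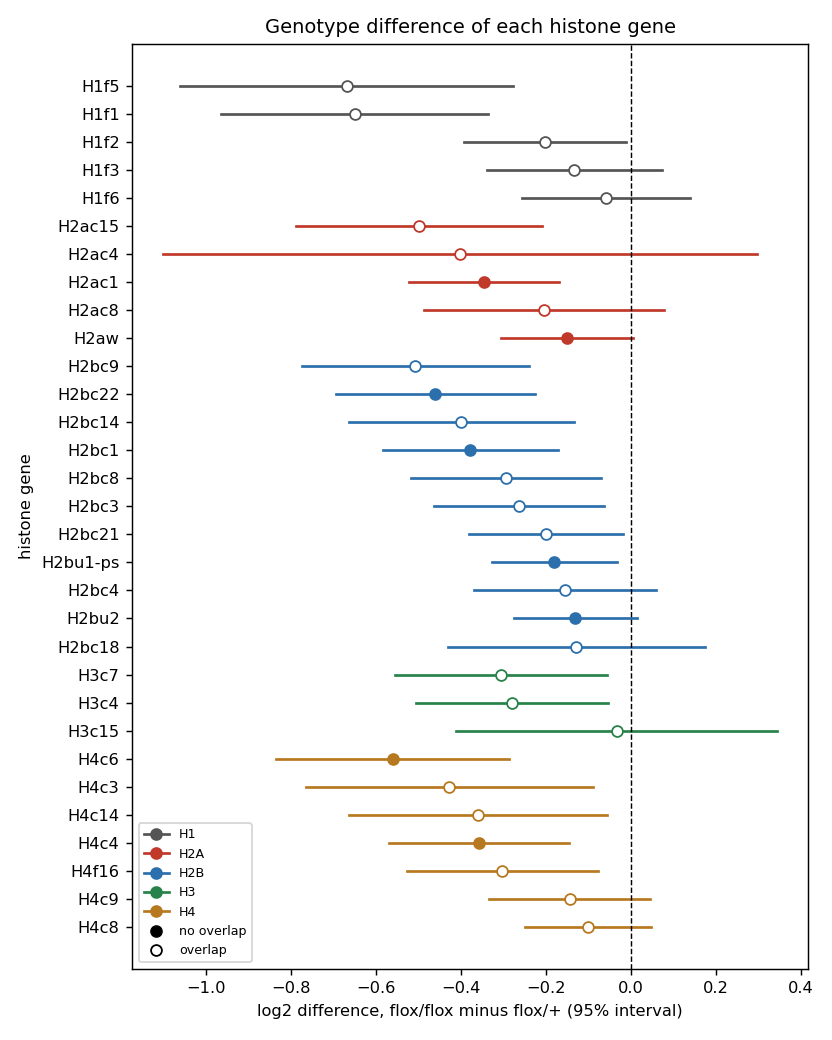
Log2 difference of each of the 31 histone genes, flox/flox minus flox/+ (horizontal axis), with limma's 95% interval as a bar. Genes run down the page by family, filled points mark genes whose genotypes did not overlap, and all 31 points lie left of 0, from -0.67 for H1f5 to -0.03 for H3c15.

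The flox/flox glands did not read alike. The mean log2 deviation of the 31 genes from their means over the 8 arrays was -0.23, -0.23, 0.076 and -0.22 in flox/flox replicates 1 to 4, against 0.031, 0.16, 0.20 and 0.21 in flox/+ replicates 1 to 4. The third flox/flox gland thus stood above its own group and above flox/+ replicate 1. It was the highest flox/flox gland in 22 of 31 genes, and it read at or above the lowest flox/+ gland in 19 of 31, where replicates 1, 2 and 4 did so in 2, 6 and 4 genes. Among the controls, flox/+ replicate 1 was the lowest in 20 of 31 genes. Summaries over the 31 genes are therefore given with and without flox/flox replicate 3. Values by family, cluster and gene list, and for the several-gene probe sets, use all 8 glands.

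**Figure D2:**
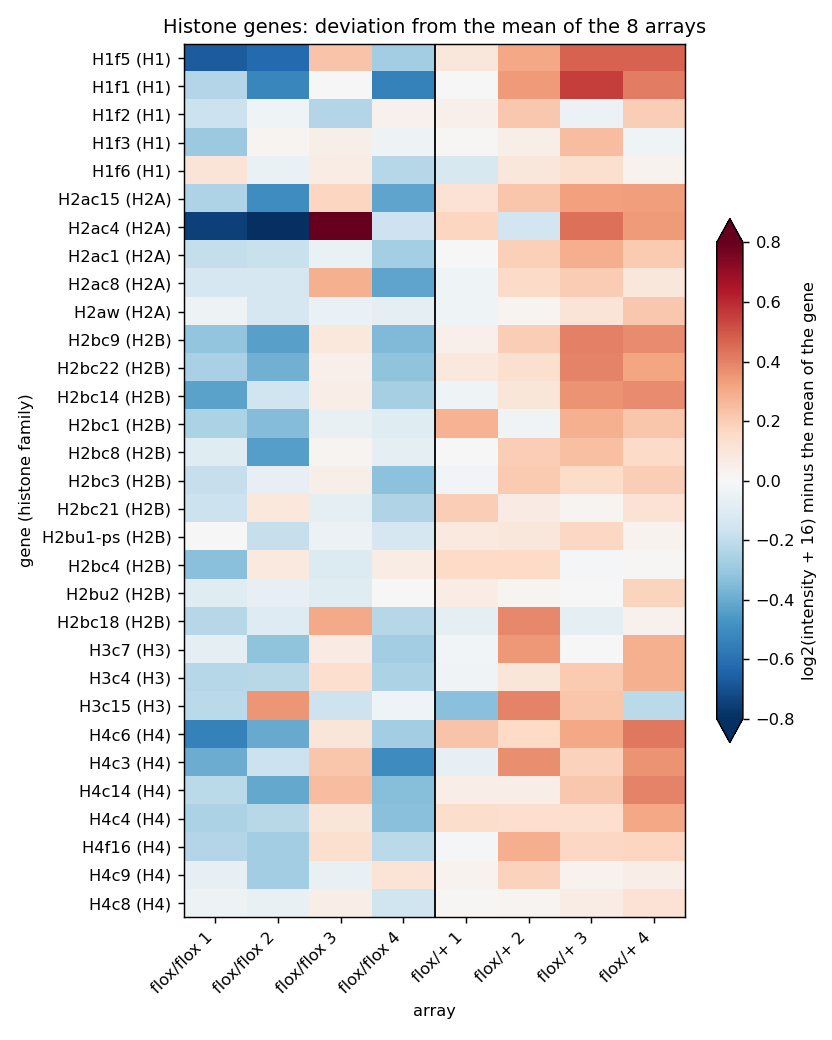
Log2 deviation of the 31 histone genes (down the page, by family) from each gene's mean over the 8 arrays (colour scale), with the 4 flox/flox glands left of the 4 flox/+ glands. Flox/flox replicate 3 is the highest of its group in 22 of 31 genes.

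The linker histones held the largest and some of the smallest differences. H1f5, a main linker histone of dividing cells, had intensities of 461, 474, 867 and 607 in flox/flox glands, against 788, 918, 1030 and 1033 in flox/+ glands. Only flox/flox replicate 3 reached into the control range. Means were 602 ± 189 in flox/flox glands and 942 ± 116 in flox/+ glands (SD, n = 4 each), a difference of -0.67 with a standard error of 0.18, or 62.9% of the control level, at an adjusted p of 0.243 by limma. H1f1 read 450, 366, 533 and 362 in flox/flox glands, against 532, 681, 792 and 713 in flox/+ glands, so that flox/flox replicate 3 and flox/+ replicate 1 met at the same level. Its means were 428 ± 81.3 in flox/flox glands and 680 ± 109 in flox/+ glands (SD, n = 4 each), a difference of -0.65 with a standard error of 0.14 and an interval between -0.97 and -0.34 (95%), at an adjusted p of 0.177 by limma.

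H1f2, known as a linker histone that non-dividing cells also make, read 344, 381, 328 and 399 in flox/flox glands, against 402, 456, 376 and 449 in flox/+ glands. The 2 groups overlapped, and the difference was -0.20 with a standard error of 0.09. H1f3, a linker histone of somatic cells, differed by -0.13 with a standard error of 0.09. The testis linker histone H1f6 read 101 ± 11.7 in flox/flox glands and 105 ± 9.35 in flox/+ glands (SD, n = 4 each). Its difference was -0.06 with a standard error of 0.09, within the spread of either genotype. Over the 5 linker histones the median was -0.20, and 3 had an unadjusted p under 0.05.

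Among the H2A genes, H2ac15 had the most negative difference. It read 501, 419, 674 and 442 in flox/flox glands, against 648, 699, 754 and 759 in flox/+ glands, and flox/flox replicate 3 alone lay within the control range. Means were 509 ± 115 in flox/flox glands and 715 ± 52.6 in flox/+ glands (SD, n = 4 each), and the difference was -0.50 with a standard error of 0.13 and an adjusted p of 0.240 by limma. H2ac1, the testis H2A, read 456, 461, 503 and 430 in flox/flox glands, against 522, 599, 644 and 606 in flox/+ glands. Here no flox/flox gland reached a control, with means of 462 ± 30.3 in flox/flox glands and 593 ± 51.4 in flox/+ glands (SD, n = 4 each) and a difference of -0.35 (standard error 0.08, limma adjusted p 0.186).

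H2ac4 was the most variable of the 31 genes, with an SD of 0.586 over the 8 arrays on the log2 scale. It read 28.3, 26.8, 123 and 50.2 in flox/flox glands, against 67.9, 51.0, 84.9 and 78.0 in flox/+ glands. The highest of all 8 glands was flox/flox replicate 3, and the other 3 lay below every control, so the difference of -0.40 had an interval between -1.10 and 0.30 (95%). H2ac8 differed by -0.21 with a standard error of 0.13, and its groups overlapped. H2aw, from the Hist3 cluster, read 866, 812, 861 and 844 in flox/flox glands, against 870, 906, 959 and 1037 in flox/+ glands, a small gap without overlap (difference -0.15, standard error 0.07, limma adjusted p 0.496). The median over the 5 H2A genes was -0.35.

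The 11 H2B genes had a median of -0.26, and 8 of them had an unadjusted p under 0.05. H2bc9 read 307, 282, 411 and 300 in flox/flox glands, against 397, 446, 517 and 506 in flox/+ glands. With flox/flox replicate 3 just above flox/+ replicate 1, the remaining flox/flox glands lay below every control. Means were 325 ± 58.5 in flox/flox glands and 466 ± 55.7 in flox/+ glands (SD, n = 4 each), a difference of -0.51 (standard error 0.12, limma adjusted p 0.197). H2bc22 read 90.7, 82.1, 116 and 86.4 in flox/flox glands, against 119, 124, 152 and 143 in flox/+ glands. No flox/flox gland reached a control, and the difference was -0.46 (standard error 0.11, limma adjusted p 0.181).

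H2bc14, whose promoter is shown with the octamer-type element, read 195, 238, 277 and 220 in flox/flox glands, against 260, 287, 347 and 353 in flox/+ glands. The groups overlapped through flox/flox replicate 3, and the difference was -0.40 (standard error 0.12, limma adjusted p 0.287). H2bc1, the testis H2B, read 137, 127, 159 and 155 in flox/flox glands, against 205, 163, 206 and 197 in flox/+ glands. The genotypes did not overlap, at a difference of -0.38 with a standard error of 0.09. H2bc8 and H2bc3 differed by -0.30 and -0.26, and in both the groups overlapped through flox/flox replicate 3.

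H2bc4 read 802, 1073, 941 and 1058 in flox/flox glands, against 1135, 1136, 1007 and 1023 in flox/+ glands. In this gene flox/flox replicate 3 was not the high one, and the difference of -0.16 (standard error 0.10, limma adjusted p 0.626) was within the spread between glands. The Hist2 genes H2bc21 and H2bc18 differed by -0.20 and -0.13, both with overlap. From the Hist3 cluster, H2bu2 read 202, 207, 202 and 217 in flox/flox glands, against 227, 221, 217 and 248 in flox/+ glands, groups that parted by less than 1 unit of intensity. The pseudogene H2bu1-ps read 220, 192, 213 and 199 in flox/flox glands, against 233, 235, 248 and 225 in flox/+ glands, also without overlap. The differences of H2bu2 and H2bu1-ps were -0.13 and -0.18, with a standard error of 0.07 each.

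The 3 H3 genes with a probe set of their own were a thin sample of the family. H3c4 read 425, 427, 550 and 418 in flox/flox glands, against 490, 536, 580 and 613 in flox/+ glands. Flox/flox replicate 3 stood apart from 3 flox/flox glands that lay below every control, and the difference was -0.28 with a standard error of 0.10. H3c7 and H3c15 had mean intensities below 54.7, the level under which the dimmest 10% of genes lay, and the table gives no detection calls to place them against background. H3c7 differed by -0.31 with a standard error of 0.11. H3c15 differed by -0.03 with an interval between -0.41 and 0.34 (95%), and this was the histone gene nearest to 0.

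The 7 H4 genes had the lowest median of the 5 families, -0.36, and 5 of them had an unadjusted p under 0.05. H4c6 read 237, 262, 378 and 288 in flox/flox glands, against 415, 396, 441 and 477 in flox/+ glands. The genotypes did not overlap, with means of 291 ± 61.4 in flox/flox glands and 432 ± 35.3 in flox/+ glands (SD, n = 4 each) and a difference of -0.56 (standard error 0.12, limma adjusted p 0.180). H4c4 read 713, 729, 914 and 672 in flox/flox glands, against 942, 936, 939 and 1061 in flox/+ glands. It too had no overlap, flox/flox replicate 3 lying closest to the controls, at a difference of -0.36 with a standard error of 0.10 and a limma adjusted p of 0.246.

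H4c3 differed by -0.43 with a standard error of 0.15, and H4c14, the Hist2 H4 gene, by -0.36 with a standard error of 0.14. H4c14 read 725, 633, 1006 and 666 in flox/flox glands, against 880, 881, 986 and 1118 in flox/+ glands, with flox/flox replicate 3 above 3 of the 4 controls. H4f16, the lone gene of the Hist4 locus, lies on chromosome 6 away from the clusters and read 645, 626, 836 and 655 in flox/flox glands, against 754, 937, 858 and 860 in flox/+ glands. The exception within its group was again replicate 3 of flox/flox, and the difference was -0.30 (standard error 0.10, limma adjusted p 0.330). H4c9 and H4c8 had the smallest differences of the family, -0.15 and -0.10, with overlap in both.

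**Figure D3:**
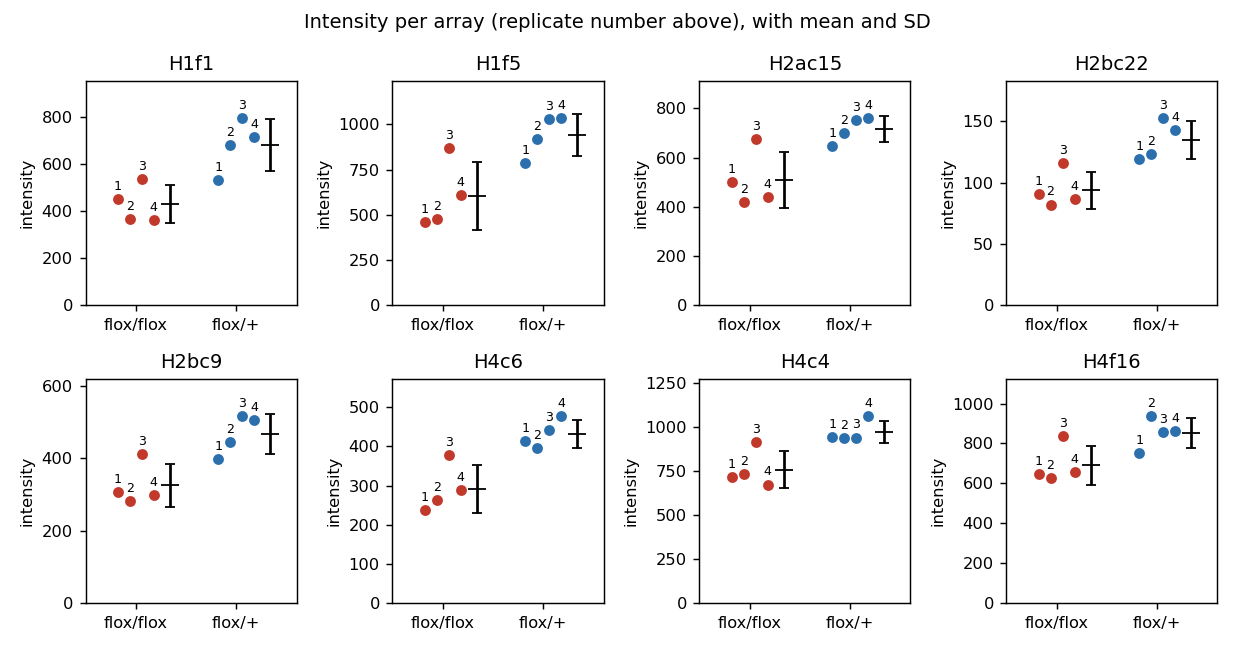
Intensity (vertical axes, linear from 0) of 8 histone genes in each gland, flox/flox left and flox/+ right, with replicate numbers above the points and the group mean and SD as a bar. H4c6, H2bc22 and H4c4 show no overlap, and in all 8 panels replicate 3 is the highest flox/flox gland.

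By place, the 23 Hist1 genes had a median of -0.35 with 16 at an unadjusted p under 0.05, the 4 Hist2 genes a median of -0.16 with 2, and the 3 Hist3 genes a median of -0.15 with 1. These differences between clusters were not tested, since the clusters hold few genes and different families. Between the Hist1 genes on chromosome 13 lie 41 protein-coding genes that are not histones and were measured, a list drawn up after the values were seen. Of these 26, or 63.4%, had a negative difference, against 52.6% of all genes, and their median was -0.04. At an unadjusted p under 0.05, 2 were lower and 2 higher, near the shares of 5.46% and 4.80% over all genes. Most of the 41 are vomeronasal receptor genes (Vmn1r), and without detection calls their signal cannot be told from background. The list therefore says little about genes active at this locus. Leaving out the 3 germ-cell histones left 28 genes with a median of -0.29, of which 18 had an unadjusted p under 0.05. A wider list of 6 measured germ-cell histones, these 3 included, had a median of -0.06, with 4 lower. In that list 2 had no overlap, H2ac1 and H2bc1. Whether their signal comes from the named genes or from other sequences was not tested.

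Without flox/flox replicate 3, the median over the 31 genes was -0.37, and 24 of them had every flox/flox gland below every control, against 5.88% of all genes. Of the 7 exceptions, H1f2, H1f3, H1f6, H2bc21, H2bc4, H3c15 and H4c9, H3c15 had a difference above 0, at 0.016. In that fit 3 histone genes passed an adjusted p of 0.05 by limma, where 21 genes of the whole table, or 0.105%, passed, 0.0502% of the table as lower. An unadjusted p under 0.05 was reached by 21 histone genes as lower, against 5.72% of all genes. The 3 were H4c6 at -0.69 (adjusted p 0.0367), H2ac15 at -0.64 (adjusted p 0.0447) and H1f5 at -0.86 (adjusted p 0.0494). The adjusted calls thus differ by 1 array, and what sets flox/flox replicate 3 apart was not tested. Without flox/+ replicate 1, the lowest control, 16 genes had no overlap, against 5.12% of all genes. Both glands were singled out by their values in these same histone genes, so wider gaps without them follow from that choice. The shares over all genes involve no such choice, and these counts are no added evidence for a genotype difference.

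**Figure D4:**
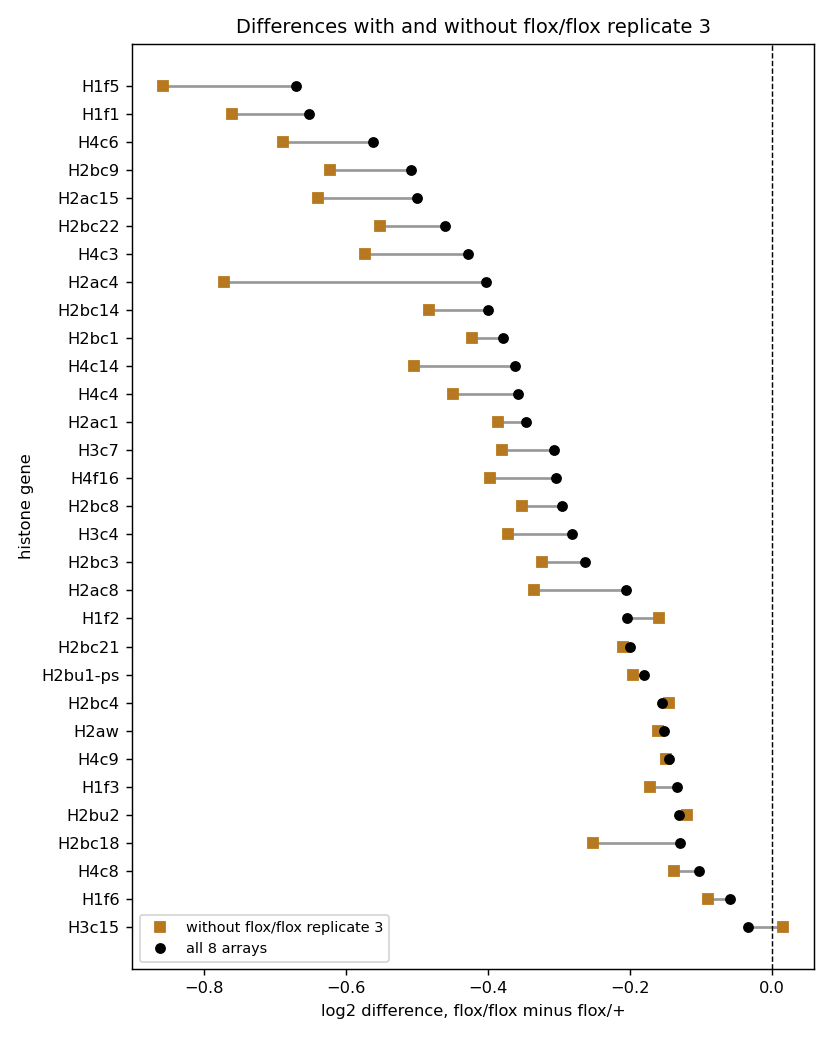
Log2 difference of each histone gene, flox/flox minus flox/+, without flox/flox replicate 3 (squares) and with all 8 arrays (circles). The median is -0.37 without that gland and -0.30 with it, and H2ac4 and H1f5 move far.

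Of the 27 probe sets paired with several symbols, 26 held histone genes alone and 1 paired H2aw with Trim17, which is not a histone gene. All 27 were lower in flox/flox glands, where 52.3% of the 35557 probe sets were, with a median of -0.50 and a range between -0.55 and -0.16. The set with Trim17 was the one at -0.16. Each had an unadjusted p under 0.05, against 4.84% of all probe sets as lower, and adjusted p-values lay between 0.371 and 0.545 by limma over all probe sets. Their signal cannot be assigned to a gene, 2 pairs of them hold identical values, and many overlap in the genes they hit, so they are no second sample. The 10 sets of H3 genes had a median of -0.53, the 7 of H2B genes -0.50, the 6 of H4 genes -0.37 and the 2 of H2A genes -0.30.

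An H3 set paired with 12 symbols (probe set 10404065, chosen after its values were seen) read 897, 908, 1764 and 958 in flox/flox glands, against 1387, 1419, 1684 and 1852 in flox/+ glands. Flox/flox replicate 3 lay above 3 of the 4 controls, and the other flox/flox glands lay far below them. The H2A set 10494386, paired with 19 symbols and chosen likewise, read 1913, 1943, 2216 and 1874 in flox/flox glands, against 2287, 2460, 2523 and 2635 in flox/+ glands. It was 1 of 4 among the 27 sets without overlap, against 2.98% of all probe sets. The mean log2 deviation of the 27 sets was -0.39, -0.39, 0.22 and -0.33 in flox/flox replicates 1 to 4, against 0.050, 0.16, 0.28 and 0.41 in flox/+ replicates 1 to 4.

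The genes that act on histone messages and proteins had medians nearer to 0 than the histone genes did, a difference that was not tested. Of 15 genes for the processing of the 3′ end and for decay, 10 were lower, with a median of -0.02, and 2 were lower and 1 higher at an unadjusted p under 0.05. Slbp, which binds the stem-loop and is itself made in S phase, read 350 ± 18.3 in flox/flox glands and 397 ± 29.6 in flox/+ glands (SD, n = 4 each), a difference of -0.17 without overlap. Cstf2t, a cleavage factor, differed by -0.20, and Upf1, a helicase of histone message decay, by 0.16. Of 11 regulators of histone transcription 8 were lower, with a median of -0.05. Npat, the coactivator that cyclin E and CDK2 switch on at histone loci, and Casp8ap2, a partner of it in the histone locus body, each differed by -0.05, and E2f2, an S phase transcription factor, by -0.23.

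Most replacement histones are made outside S phase from ordinary polyadenylated messages, though not every one of those listed here need be. Of the 10 measured, 9 were lower, with a median of -0.14, and 3 had an unadjusted p under 0.05. The 3 were Macroh2a2, a variant H2A with a macro domain, at -0.32, Cenpa, the centromeric H3, at -0.28, and the linker histone H1f10 at -0.22. The 17 histone chaperones and importers had a median of -0.01. Chaf1b, a subunit of the CAF-1 complex that deposits new H3 and H4 behind the fork, differed by -0.24, and Chaf1a, another subunit, by -0.14.

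Genes of the cell cycle were set beside the histones gland by gland. Of 32 S phase genes 29 were lower, with a median of -0.13, and 8 had an unadjusted p under 0.05. Pole, the catalytic subunit of a replicative DNA polymerase, differed by -0.27, and Mcm5, of the replicative helicase, by -0.33, both without overlap. Mcm6, of the same helicase, differed by -0.45, and Rrm1, of the enzyme that makes deoxyribonucleotides, by -0.24, both with overlap. All 24 mitosis genes were lower, with a median of -0.42. Of these 19 had an unadjusted p under 0.05 and 15 had no overlap, against 5.46% and 3.16% of all genes as lower. In 1 of them, the spindle kinesin Kif11, the difference was -0.59 at an adjusted p of 0.0172 by limma. The mean deviation of the mitosis list was -0.28, -0.30, 0.0061 and -0.26 in flox/flox replicates 1 to 4, against 0.11, 0.094, 0.28 and 0.36 in flox/+ replicates 1 to 4. Flox/flox replicate 3 was thus the highest of its group in the mitosis list too. For the S phase list the values were -0.21, -0.13, 0.025 and 0.040 in flox/flox glands, against 0.095, 0.026, 0.15 and 0.0034 in flox/+ glands, and there flox/flox replicate 4 read above replicate 3. The part of dividing cells in the histone values was not tested.

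**Figure D5:**
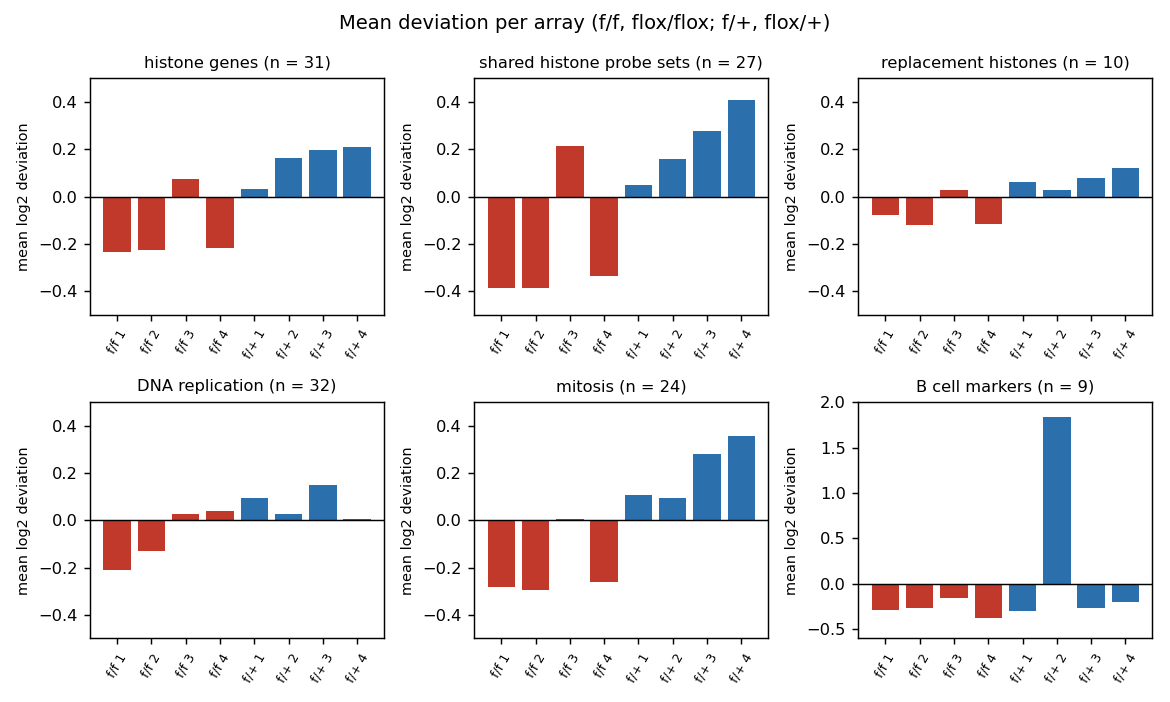
Mean log2 deviation, in each gland, of the histone genes and of other gene lists from the genes' means over the 8 arrays, flox/flox left of flox/+. Flox/flox replicate 3 lies above its group for the 31 histone genes and the mitosis genes, and flox/+ replicate 2 is high for B cell genes.

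Markers of the cell types in the dissected tissue were set beside these values. Glands of both genotypes held the defining genes of fat and ducts: Adipoq read 5398 ± 355 in flox/flox glands and 5865 ± 373 in flox/+ glands, and the luminal keratin Krt19 read 4050 ± 522 in flox/flox glands and 4413 ± 532 in flox/+ glands (SD, n = 4 each). B cell markers, all 9 lower with a median of -0.45 and 0 at an unadjusted p under 0.05, were high in a single control, flox/+ replicate 2, at a mean deviation of 1.84, against -0.37 to -0.15 in the flox/flox glands and -0.30 to -0.20 in the other 3 flox/+ glands. Without flox/+ replicate 2 the histone median was -0.26. The median was -0.07 over 8 T cell markers, -0.03 over 10 luminal, 0.12 over 10 basal, -0.27 over 9 fibroblast and -0.01 over 9 white adipocyte markers. Germinal centre B cell markers had a median of 0.08 over 6 genes with 2 lower, and the part of dividing lymphocytes was not tested. Sox9 itself read 323 ± 35.7 in flox/flox glands and 410 ± 35.1 in flox/+ glands (SD, n = 4 each), a difference of -0.33. Its adjusted p was 0.256 by limma, above the threshold of 0.05. The exact permutation p was 0.0286, the smallest that 70 assignments allow, and the histone genes without overlap had the same.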

How the data were processed

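Intensity values on a linear scale were deposited by the authors, who used PLIER (Affymetrix Expression Console 1.0) according to the submitters' processing notes. How background was corrected and arrays were scaled is not given in the sources used here. Deposited medians were 159 to 178 per array, without detection calls, and 0 columns were unmatched. Of 35557 probe sets, 21789 had 1 symbol, 1621 several and 12147 none; the brightest per gene was kept (19938 genes).

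Values were offset by 16, taken to log2 and quantile normalized over all probe sets. The genotype comparison used limma's lmFit and eBayes (version 3.58.1, R 4.3.3) with Benjamini-Hochberg adjustment over all genes at 0.05; the scripts were tested on simulated data. Histone genes were matched by gene identifier to RefSeq GRCm38.p6 synonyms, and each had 1 single-symbol probe set. Of 190 genes in 14 lists 176 were measured. The genes and lists were chosen with earlier results of these data known.

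Named genes were histone genes with the smallest p, the highest level, the most variable, those of the Hist3 and Hist4 loci and the germ-cell ones, with exceptions stated in the text. The others were added after their values were seen, to account for each gene. From the other lists, at most 4 genes were named, those with the smallest p, and Npat, Casp8ap2, Adipoq and Krt19 for their roles, after their values were seen. The promoter elements were searched as letters. Labels do not say whether glands with equal replicate numbers share a litter; deviations of equal-numbered glands correlated by -0.20, 0.062, 0.21 and -0.095, so no pairing was used, and p-values measure the spread between glands. Alternatives were other normalizations, offsets and filters, eBayes options, covariates and each array left out.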

Additional observations from a re-analysis of the deposited data

Results flagged for a closer look

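In groups of 4 glands, a value is given here when its gap to the nearest of the others, divided by the group's whole range, exceeded Dixon's 95% critical value, which chance gives in about 1 in 20 groups. Of 106 groups of values tested, 13 did. Most concern flox/flox replicate 3. It read 550 in H3c4, with the nearest flox/flox gland at 427, and 836 in H4f16, with the nearest at 655. As a mean log2 deviation it lay at 0.076 for the 31 histone genes, 0.22 for the several-gene probe sets, 0.019 for H1, 0.25 for H2A, 0.016 for H2B, 0.11 for H4 and 0.0061 for the mitosis genes, each above the other 3 flox/flox glands. These summaries share genes, so they are not separate observations. Flox/+ replicate 4 read 1061 in H4c4, with the nearest control at 942, and flox/+ replicate 2 read 581 in H4c9, with the nearest at 529. Flox/+ replicate 2 also lay at 1.84 for B cell markers and 0.54 for T cell markers. What sets these glands apart was not tested.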

How the results depend on the processing

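The median over the 31 histone genes lay between -0.37 and -0.22 in all 19 settings, and all 31 differences were negative in 11 of them. Of 581 values of single histone genes under alternatives, 570 kept direction and side of the threshold, 3 passed it and 8 changed sign. The sign changes were in H3c15, at 0.0074 with values as deposited, 0.0059 with median centring, 0.093 with a B cell covariate and between -0.16 and 0.093 with 1 gland left out, and in H1f6, between -0.11 and 0.0068 with 1 gland left out. The number of genes in the table with an adjusted p under 0.05 by limma was 18 with median centring, 4 and 19 with offsets of 1 and 64, 3 without the lowest 1 in 3 genes, 1 over all probe sets, 17 with trend and robust options, and 2 to 21 with 1 gland left out. With 1 gland left out, 0 to 3 histone genes passed the adjusted threshold, against 0.01% to 0.105% of all genes. An unadjusted p under 0.05 was reached as lower by 15 to 21 histone genes, against 4.28% to 5.72% of all genes. In 8 to 24 every flox/flox gland lay below every control, against 4.55% to 5.88%. With the several-gene probe sets counted in, an alternative chosen after seeing the data, 58 of 58 differences were negative with a median of -0.39. Over all probe sets 52.3% were negative. Whether equal replicate numbers pair the glands is not known from the labels. With the replicate block 8 genes and 0 histone genes passed, 19 histone genes had an unadjusted p under 0.05 and the median was -0.30. The share of all genes with an unadjusted p under 0.05 in that fit is not given here. With 4 glands a genotype and no detection calls, small differences of dim genes such as H3c15 cannot be measured.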
